A study of Homo sapiens with 6 samples.

Results

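The genes described here encode molecular chaperones outside the HSP70 family: the DNAJ proteins, the small heat shock proteins, the chaperonins, the BAG proteins, HSP90 and HSP110, with the heat shock factors HSF1 and HSF2. Members were taken by symbol among protein-coding genes of the deposited count table. No values enter the rule, but it was chosen with earlier results of these data known. The rule found 70 genes of the 29889 in the table, namely 40 DNAJ genes, 8 small HSP genes, 9 genes named for subunits of the TRiC chaperonin, 6 BAG genes, 2 genes each for cytosolic HSP90, for mitochondrial HSP60 and HSP10 and for the heat shock factors, and HSPH1 for HSP110. A549, a human lung adenocarcinoma cell line, was transfected with Lipofectamine and harvested after 48 h. The CELF6-OE group received a pIRES-hrGFP-1a plasmid carrying the sequence of CELF6, an RNA-binding protein of splicing and mRNA stability, and the Control group received the empty plasmid. Each group had 3 biological replicates of 1 cell line, and polyadenylated RNA was sequenced.

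Chaperones hold unfolded or newly made proteins and help them to fold. DNAJ proteins (HSP40) bind clients and stimulate the ATPase of HSP70 through their J domain, HSP110 and BAG proteins act as nucleotide exchange factors of HSP70, and HSP90 finishes the folding of kinases and steroid receptors. TRiC stacks a pair of rings, each of 8 different subunits, and folds actin and tubulin, HSP60 and HSP10 do the like in mitochondria, and small HSPs hold aggregating proteins without ATP. Under proteotoxic stress HSF1 binds heat shock elements, repeats of GAA and its complement, upstream of many of these genes.

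The elements that the members' promoters carry are shown first, and they differ from gene to gene. RefSeq promoter windows (GRCh38.p14, 250 bases before to 50 after a start site) were found for 62 of the 70 members, 83 windows in all. They were searched on both strands for 2-unit elements, GAANNTTC or TTCNNGAA, each of which reads the same on either strand. They were also searched for 3-unit elements, in which such a match runs on, after 2 more bases, into another GAA or TTC in alternating orientation, so that each holds a pair of overlapping 2-unit matches. A 2-unit match stood in 20 of 83 member windows (24.1%), against 13.5% of all 35116 RefSeq windows, and a 3-unit match in 5 of 83 (6.02%), against 0.49% of all windows. The 3-unit matches belonged to HSP90AA1, HSP90AB1, HSPD1, DNAJA1 and DNAJB6. Those of HSP90AA1, HSP90AB1 and DNAJB6, and 2 of the 3 matches of DNAJB1 (all 2-unit), lay before the start site and outside annotated exons (GENCODE v44). They are printed 5′ to 3′ on the strand of the gene, with every 2-unit and 3-unit match in capitals, for HSP90AA1 (chr14:102087093-102087144, minus strand), HSP90AB1 (chr6:44247766-44247855, plus strand), DNAJB6 (chr7:157336861-157336897, plus strand) and DNAJB1 (chr19:14518425-14518486, minus strand).
HSP90AA1: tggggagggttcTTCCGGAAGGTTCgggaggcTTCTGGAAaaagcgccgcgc
HSP90AB1: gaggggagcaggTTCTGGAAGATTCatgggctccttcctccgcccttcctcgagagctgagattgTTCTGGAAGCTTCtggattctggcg
DNAJB6: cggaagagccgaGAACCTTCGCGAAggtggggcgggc
DNAJB1: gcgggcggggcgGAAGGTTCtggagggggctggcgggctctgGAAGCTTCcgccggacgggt

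In the stretches shown, HSP90AB1 held a pair of 3-unit elements, HSP90AA1 held 1 and a separate 2-unit match nearer the start site, DNAJB6 held 1, and DNAJB1 held 2 separate 2-unit matches. No match was found in the windows of BAG3 or HSPH1, which says only that these letters are not in those 300 bases. A match describes letters, and binding was not measured.

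CELF6 itself (ENSG00000140488) was counted 18646, 20789 and 11571 times in the CELF6-OE libraries and 0 times in each Control library. With 3 counts per library as the most that a count of 0 allows, and after scaling to library size, its level in CELF6-OE was at least 5868-fold higher. Reads of the plasmid and of the chromosomal gene could not be separated. The libraries held between 33748328 and 37920700 counts on genes, and 15847 genes passed the filter on low counts and were tested. Control replicates 1 and 3 differed most within a group, with a chi-square statistic of 29.3 for each degree of freedom against 7.67 to 11.7 in the other 5 pairs of replicates, so no library was a copy of another. All 6 epithelial markers looked up (KRT7, KRT8, KRT18, KRT19, EPCAM and CDH1) had a mean FPKM over 1, and their sum ranged from 5041 to 5793 over the CELF6-OE libraries and from 6177 to 7029 over the Control libraries, with 4 of 6 called lower. Of 7 leukocyte markers 1, CD14, had a mean FPKM over 1 and CD3E was not listed. ITGAM, 1 of the 2 leukocyte markers tested, was called lower. The sum of the leukocyte markers ranged from 3.67 to 5.03 over the CELF6-OE libraries and from 3.60 to 4.31 over the Control libraries. Of 6 fibroblast markers 0 had a mean FPKM over 1 and COL1A2 was not listed, with sums of 0.25 to 0.34 over the CELF6-OE libraries and of 0.39 to 0.47 over the Control libraries. The part of these markers in the results below was not tested.

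In CELF6-OE DNAJB1 was higher by 51.5%, BAG3 by 31.9%, HSPH1 by 31.7% and HSP90AA1 by 30.5%, and most other members had no call. Smaller rises were found for TCP1, DNAJC9, CCT6A, CCT5, DNAJC5 and HSP90AB1, between 15.1% and 22.5%. DNAJC15 fell by 71.2%, DNAJB13 fell by 62.4%, DNAJC12 fell by 31.7% and DNAJC1 fell by 20.7%. HSF1, HSF2, the small HSPs, the DNAJA proteins and HSP60 with HSP10 had no call. In bulk RNA, fewer cells expressing a gene and less RNA per cell cannot be told apart.

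Of the 70 members 64 were tested, and the 6 others, DNAJA4, HSPB2, HSPB3, HSPB6, HSPB7 and HSPB9, had at most 9 counts in any library. At a Benjamini-Hochberg adjusted p under 0.05 in edgeR's quasi-likelihood test, 10 members (15.6%) were higher and 4 (6.25%) lower, where 6.47% of all genes tested were called higher and 11.5% lower (6.63% and 12.7% of protein-coding genes). In either direction 14 of 64 were called, 21.9%, near the 18.0% of all genes. At an unadjusted p below 0.01 with a change of 1.5-fold or more, which is 1 of the 2 criteria for DEGs that the study names, DNAJB1 was the single DEG among the risen members and DNAJB13 and DNAJC15 were the DEGs among the fallen ones, where 1.36% of all genes were called higher, 5.91% lower and 7.27% in either direction. The other criterion, an adjusted p below 0.05 with the same fold, called the same 3 members, where 1.35% of all genes were called higher and 5.82% lower. The log2 ratio of CELF6-OE to Control, the log2 fold change from the fit, had a median of 0.062 over the 64 members, against 0.011 over all genes tested. Without Control replicate 3 these medians were 0.034 and 0.0037. The estimate was above 0 for 44 of the 64 (68.8%), against 51.6% of all genes. On the scale of TMM-scaled counts, libraries of the groups did not overlap for 16 members that were higher and 8 that were lower in CELF6-OE (25.0% and 12.5%), where 17.9% and 20.0% of all genes did so. In either direction these were 24 of 64 members, against 37.9% of all genes.

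**Figure D1:**
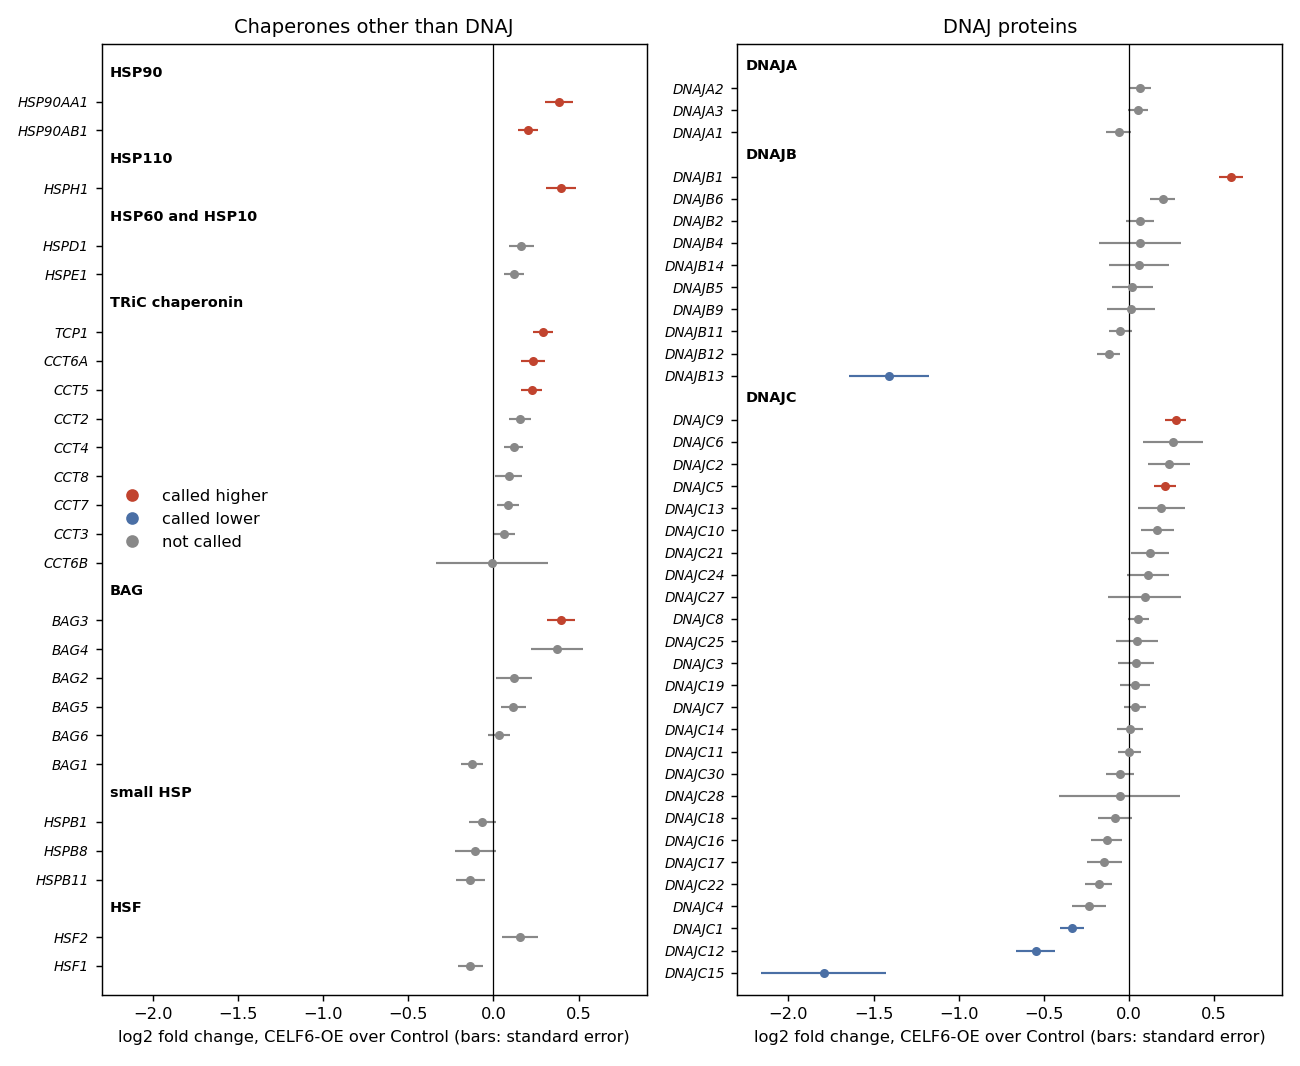
Log2 ratio of CELF6-OE over Control for the 64 tested members, grouped by role, with standard errors as bars (edgeR, 3 libraries per group). The 10 genes called higher at an adjusted p under 0.05 are red and the 4 called lower are blue; DNAJB1 stands farthest to the right at 0.60 and DNAJC15 farthest to the left at -1.79.

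Members differed over several orders of level. FPKM, a level per length of transcript and per depth of library on which different genes can be set side by side, was highest in Control for HSP90AB1 at 527 ± 4.90 (SD, n = 3), followed by HSPB1 at 514 ± 39.9 and HSPE1 at 477 ± 10.1. HSPB1 and its neighbours in this order did not differ beyond their spread. HSP90AA1, CCT7 and HSPD1 came next at 367 ± 48.9, 364 ± 7.61 and 362 ± 42.5, and did not differ beyond their spread either. The lowest tested members were DNAJC15 at 0.11, DNAJC28 at 0.12 and CCT6B at 0.24. Summed over the 70 members, FPKM reached 5159, 5208 and 5072 in the CELF6-OE libraries, against 4739, 4637 and 4416 in Control. This is 1.00% to 1.03% of all FPKM in CELF6-OE and 0.854% to 0.949% in Control.

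DNAJB1 (HSP40 proper, ENSG00000132002, chr19:14514769-14560391 of GRCh38 in GENCODE v44) delivers clients to HSP70 and is a classic heat shock gene. Its FPKM was 104, 100.4 and 93.4 in CELF6-OE and 61.5, 65.7 and 65.2 in Control. The lowest CELF6-OE library exceeded the highest Control library, and the gap between the groups was wider than the range within either. The log2 ratio was 0.60 (standard error 0.070, adjusted p = 0.000196). A two-sided exact permutation test of the 6 FPKM values gave p = 0.1, the smallest that 3 against 3 allow. This call held in all 15 alternative fits, with a log2 ratio of 0.54 to 0.64. TECR, which overlaps DNAJB1 on the opposite strand, had 56.0% as many counts and no call.

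BAG3 (ENSG00000151929, chr10:119651380-119677819), which binds HSP70 through its BAG domain and works in selective autophagy, had an FPKM of 55.8, 59.7 and 50.8 in CELF6-OE and 38.6, 40.5 and 44.3 in Control. The groups did not overlap, but Control replicate 3 and CELF6-OE replicate 3 were the nearest. This gave a log2 ratio of 0.40 (standard error 0.083, adjusted p = 0.00741). Without CELF6-OE replicate 2 it was 0.34, and the adjusted p was 0.0536.

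HSPH1 (ENSG00000120694, chr13:31134973-31162388), the cytosolic HSP110 that reloads HSP70 with ATP, had an FPKM of 24.1, 26.4 and 23.5 in CELF6-OE and 21.0, 18.8 and 15.3 in Control. All CELF6-OE libraries were above the highest Control library, and the Control libraries were spread more widely. edgeR estimated a log2 ratio of 0.40 (standard error 0.090, adjusted p = 0.0114). Without CELF6-OE replicate 2 it was 0.35 with an adjusted p of 0.0659, and without Control replicate 3 it was 0.30 with an adjusted p of 0.00738.

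HSP90AA1 (ENSG00000080824, chr14:102080742-102139699), the stress-inducible cytosolic HSP90, had an FPKM of 475, 517 and 471 in CELF6-OE and 411, 375 and 314 in Control. That is a log2 ratio of 0.38 (standard error 0.083, adjusted p = 0.00918). It was 0.34 without CELF6-OE replicate 2, with an adjusted p of 0.0542. HSP90AB1 (ENSG00000096384, chr6:44246166-44253888), the constitutive paralog, had an FPKM of 618, 635 and 604 in CELF6-OE and 531, 527 and 522 in Control, with a tighter Control group than that of HSP90AA1. The call of HSP90AB1, at a log2 ratio of 0.20 (standard error 0.060, adjusted p = 0.0389), was lost without CELF6-OE replicates 1, 2 or 3 or Control replicate 2, at log2 ratios of 0.20, 0.19, 0.21 and 0.21 and adjusted p between 0.102 and 0.163. The difference between the paralogs was not tested. Both genes carry 3-unit elements, and so do DNAJB6, DNAJA1 and HSPD1, which had no call.

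**Figure D2:**
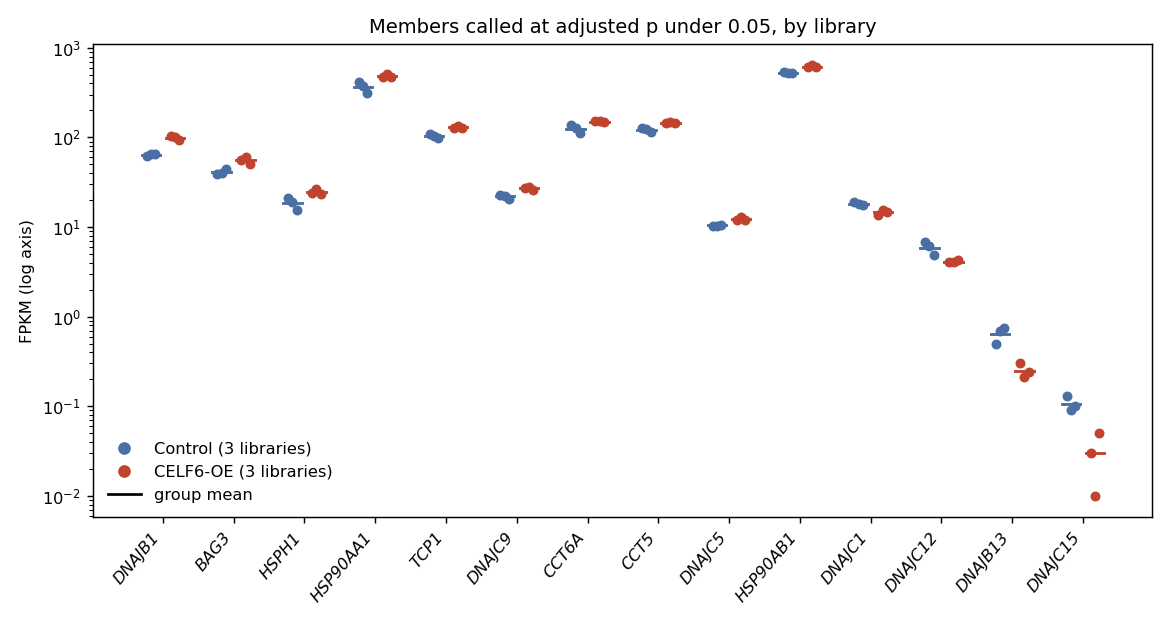
FPKM on a log axis for the 14 members called at an adjusted p under 0.05, with each of the 3 Control (blue) and 3 CELF6-OE (red) libraries as a point and the group mean as a line. CELF6-OE and Control libraries do not overlap for any of the 14, which were picked by a test on these same libraries. Of all genes tested, 37.9% did not overlap on TMM-scaled counts. The fallen genes DNAJB13 and DNAJC15 lie below an FPKM of 1.

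All 11 members on a list of heat-inducible genes were tested. The list includes HSP90AB1, the constitutive paralog of HSP90AA1, whose call was lost in 5 of 15 alternative fits. DNAJB1, BAG3, HSPH1, HSP90AA1 and HSP90AB1 rose, 0 were called lower, and the 6 others had no call, 45.5% called against 18.0% of all genes (6.47% higher). The list was drawn up with earlier results of these data known, so its share is no independent support. Its median log2 ratio was 0.165, against 0.011 for all genes. DNAJA1, a main cytosolic J protein, had an FPKM of 187, 185 and 196 in CELF6-OE and 216, 195 and 170.3 in Control, with overlapping groups and a log2 ratio of -0.061 (standard error 0.074). DNAJB4 had 3.76, 3.63 and 3.88 in CELF6-OE and 5.21, 3.47 and 1.95 in Control, so all CELF6-OE libraries lay within the Control range. HSPB1 (HSP27), the most abundant small HSP, had 520, 496 and 493 in CELF6-OE and 473, 518 and 552 in Control, which overlap as well. HSPD1 and HSPE1 did not overlap between the groups but missed the threshold (below), and HSPB8, a partner of BAG3, had a log2 ratio of -0.11 (standard error 0.12).

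The transcription factors had no call. HSF1, which drives the heat shock response, had an FPKM of 48.0, 49.9 and 46.4 in CELF6-OE and 48.7, 50.9 and 55.4 in Control. Its log2 ratio was -0.14 (standard error 0.074, adjusted p = 0.232), and it was -0.21 with an adjusted p of 0.0330 without Control replicate 1. HSF2, its developmental paralog, had 3.04, 2.73 and 2.83 in CELF6-OE and 2.71, 2.59 and 2.27 in Control. The estimate was 0.16 (standard error 0.11, adjusted p = 0.342) on the log2 scale. HSF1 is controlled mainly at the protein level, which was not measured here.

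Of the 9 TRiC genes 3 rose and 6 had no call, 33.3% called against 18.0% of all genes, and the median log2 ratio was 0.12. TCP1 (ENSG00000120438, chr6:159778498-159789703), the alpha subunit, had an FPKM of 129, 134 and 126 in CELF6-OE and 109.9, 104 and 97.4 in Control. The groups did not overlap, the log2 ratio was 0.29 (standard error 0.059, adjusted p = 0.00639), and TCP1 was called in all 15 alternative fits. ACAT2 overlaps it on the opposite strand, with 13.5% as many counts and no call. CCT6A (ENSG00000146731, chr7:56051685-56063989), the zeta subunit, had 151, 152 and 149 in CELF6-OE and 139, 126 and 112 in Control, for a log2 ratio of 0.23 (standard error 0.068, adjusted p = 0.0377). CCT5 (ENSG00000150753, chr5:10249929-10266389), the epsilon subunit, had 146, 148 and 144 in CELF6-OE and 128, 125.5 and 114 in Control, for a log2 ratio of 0.22 (standard error 0.060, adjusted p = 0.0251). CELF6-OE libraries were close together for both, and the Control libraries were not.

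The calls of CCT5 and CCT6A were lost without CELF6-OE replicates 1, 2 or 3 or Control replicate 2, where their log2 ratios were 0.22, 0.22, 0.23 and 0.25 for CCT5 and 0.22, 0.23, 0.24 and 0.24 for CCT6A. Without Control replicate 3 the log2 ratio of CCT6A was 0.17 with an adjusted p of 0.0645. CCT2 and CCT4 were higher in every CELF6-OE library than in any Control library without a call, at log2 ratios of 0.16 (standard error 0.065) and 0.12 (standard error 0.057). For CCT3, CCT7 and CCT8, whose TMM-scaled counts overlapped between the groups, it was 0.065 to 0.090. The 8 subunits of the ring are used in equal number in the complex, yet their FPKM in Control ranged 3.51-fold, from 104 for TCP1 to 364 for CCT7. CCT6B, the testis form of the zeta subunit, had an FPKM of 0.24 in each group.

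HSPD1 (HSP60) and HSPE1 (HSP10), the mitochondrial chaperonin and its lid, are transcribed from opposite strands on chromosome 2. The annotated span of HSPE1 lies inside that of HSPD1. HSPD1 had an FPKM of 403, 428 and 411 in CELF6-OE and 401, 369 and 317 in Control, for a log2 ratio of 0.17 (standard error 0.074, adjusted p = 0.148). HSPE1 had 542, 517 and 529 in CELF6-OE and 486, 478 and 466 in Control, for a log2 ratio of 0.12 (standard error 0.058, adjusted p = 0.172). Groups did not overlap for either gene, yet neither passed the test. At an unadjusted p under 0.05, 1 of the 2 passed in edgeR, and DESeq2 and limma-voom called 0. HSPE1 was called when libraries were scaled by size alone, and HSPD1 without Control replicate 1.

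**Figure D3:**
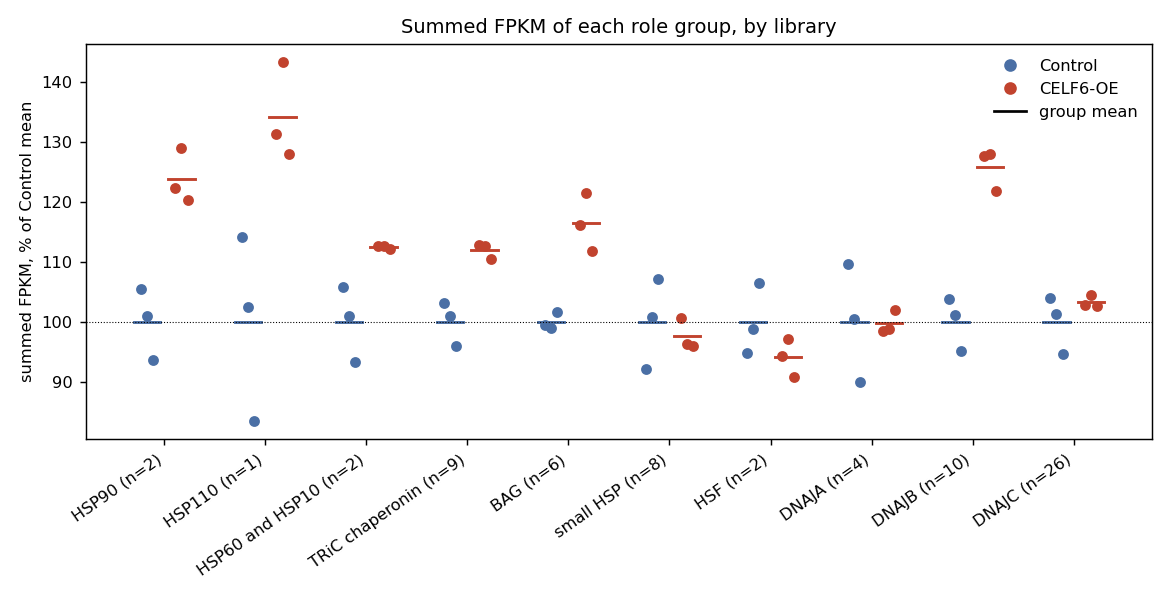
Summed FPKM of the members of each role group in each library, as a percentage of the Control mean, with Control in blue, CELF6-OE in red and group means as lines; n is the number of member genes summed. The CELF6-OE libraries lie above all Control libraries for HSP90, HSP110, HSP60 and HSP10, TRiC, BAG and DNAJB, and overlap them for small HSP, HSF, DNAJA and DNAJC. Deposited FPKM is used, without TMM scaling.

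Summed FPKM per role group was 1106 ± 40.3 in CELF6-OE and 893 ± 53.8 in Control for HSP90 (SD, n = 3 each). The TRiC genes summed to 1663 ± 18.2 and 1485 ± 55.0, and HSPD1 with HSPE1 to 943 ± 2.89 and 839 ± 52.6. For the DNAJB genes the sums were 188 ± 5.18 and 149.7 ± 6.53, and DNAJB1 made up most of the difference. The DNAJA genes summed to 256 ± 4.81 and 257 ± 25.2, which differ by less than the spread in either group. The small HSPs summed to 521 ± 14.1 in CELF6-OE and 533 ± 40.3 in Control. These sums are of deposited FPKM, without the TMM scaling of the fit. On log2(FPKM + 0.1) the median log2 ratio of all genes tested was 0.040, against 0.011 in the main fit. For HSP90, HSP110, HSP60 with HSP10, TRiC, BAG and DNAJB a two-sided exact permutation test of the sums gave p = 0.1 each, the smallest possible.

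Small HSPs had no call in either direction. All 3 tested genes, HSPB1, HSPB8 and HSPB11, had estimates below 0, between -0.13 and -0.064 on the log2 scale. They were below 0 under each scaling tried, but without Control replicate 3 the estimate was above 0 for 2 of the 3, with a median of 0.0089 against -0.11 with all libraries. At an unadjusted p under 0.05 in edgeR 0 of 3 passed, and DESeq2 and limma-voom called 0 as well. HSPB11 is a component of intraflagellar transport. The muscle-type genes HSPB2, HSPB3, HSPB6 and HSPB7 and the testis gene HSPB9 were at or near 0 counts.

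Apart from BAG3, the BAG genes had no call. BAG4, which restrains TNF receptor signalling, had an FPKM of 3.64, 3.68 and 3.77 in CELF6-OE and 3.76, 2.53 and 2.15 in Control. Its log2 ratio of 0.37 (standard error 0.15, adjusted p = 0.116) was nearly as large as that of BAG3, but Control replicate 1 lay within the CELF6-OE range. BAG1, the founding member that binds BCL2, had a log2 ratio of -0.13 (standard error 0.063, adjusted p = 0.193). BAG6, which guides tail-anchored membrane proteins, was the most abundant BAG gene after BAG3, at an FPKM of 33.2 ± 0.58 in CELF6-OE and 31.7 ± 1.15 in Control (SD, n = 3). On the log2 scale it differed by 0.035 (standard error 0.064).

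Among the 39 tested DNAJ genes 3 rose, 4 fell and 32 had no call, 17.9% called against 18.0% of all genes, and the median log2 ratio was 0.036. The risen genes besides DNAJB1 were DNAJC9 and DNAJC5. DNAJC9 (ENSG00000213551, chr10:73183362-73247255), a chaperone of histones H3 and H4, had an FPKM of 27.4, 27.9 and 25.8 in CELF6-OE and 23.0, 22.3 and 20.5 in Control. The groups did not overlap, and the log2 ratio was 0.27 (standard error 0.063, adjusted p = 0.0125), and without CELF6-OE replicate 1 or 2 or Control replicate 2 it was 0.26, 0.25 and 0.29, with adjusted p of 0.0700, 0.0713 and 0.0592. DNAJC5 (ENSG00000101152, chr20:63895126-63936031), the cysteine string protein of secretory vesicles, had 12.05, 12.98 and 11.91 in CELF6-OE and 10.29, 10.27 and 10.66 in Control. The log2 ratio was 0.21 (standard error 0.066, adjusted p = 0.0465), and this call held in 7 of 15 alternative fits, the fewest of the 14. Leaving out CELF6-OE replicate 1, 2 or 3 or Control replicate 1 or 2 gave 0.22, 0.17, 0.23, 0.17 and 0.21 without a call.

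The fallen DNAJ genes were of low to moderate level. DNAJC1 (ENSG00000136770, chr10:21756548-22003769), a J protein of the ER membrane that docks HSPA5 at ribosomes, had an FPKM of 13.7, 15.7 and 14.8 in CELF6-OE and 19.0, 18.2 and 17.5 in Control. All Control libraries lay above all CELF6-OE libraries, at a log2 ratio of -0.33 (standard error 0.070, adjusted p = 0.00767). Without CELF6-OE replicate 1 it was -0.29 with an adjusted p of 0.0546, and without Control replicate 2 it was -0.33 with an adjusted p of 0.0514.

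DNAJC12 (ENSG00000108176, chr10:67796669-67838188), a co-chaperone of the aromatic amino acid hydroxylases, had an FPKM of 4.02, 4.03 and 4.28 in CELF6-OE and 6.74, 6.12 and 4.86 in Control. The CELF6-OE libraries were close together and below every Control library. The log2 ratio was -0.55 (standard error 0.12, adjusted p = 0.00822), and without Control replicate 2 it was -0.52 with an adjusted p of 0.0501.

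DNAJB13 (ENSG00000187726, chr11:73951026-73970366), an axonemal protein of cilia and sperm flagella, was covered by 35, 25 and 28 counts in the CELF6-OE libraries, against 62, 89 and 96 in the Control libraries. All Control libraries held more counts than any CELF6-OE library. The log2 ratio was -1.41 (standard error 0.23, adjusted p = 0.00197), and it was called in all 15 alternative fits. DNAJC15 (ENSG00000120675, chr13:43023203-43114213), a J protein of the mitochondrial inner membrane that restrains the respiratory chain, was covered by 9, 4 and 13 counts in the CELF6-OE libraries, against 38, 28 and 30 in the Control libraries. DNAJC15 had a log2 ratio of -1.79 (standard error 0.37, adjusted p = 0.00672), and its call was lost with limma on log2(FPKM + 1), at -0.10 and an adjusted p of 0.0541. These genes rest on few reads, so the sizes of their changes are imprecise.

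By site in the cell, 1 of 5 J proteins of the ER lumen and its membrane face was called, DNAJC1, while the genes for the HSPA5 partners DNAJB9, DNAJB11, DNAJC3 and DNAJC10 had no call. DNAJB9, an early target of the unfolded protein response, had an FPKM of 5.72, 5.86 and 5.76 in CELF6-OE and 7.30, 5.34 and 4.30 in Control, and its log2 ratio was 0.010 (standard error 0.14). Of 7 mitochondrial members 1 was called, DNAJC15. Of 5 nuclear or ribosome-linked J proteins 1 was called, DNAJC9, and of 3 vesicle J proteins 1, DNAJC5. These shares were 20.0% for the ER lumen list, 14.3% for the mitochondrial, 20.0% for the nuclear or ribosome-linked and 33.3% for the vesicle list, each a single gene, against 18.0% of all genes. ER membrane members DNAJB12 and DNAJB14 had no call, with 0 of 2 at an unadjusted p under 0.05. The 3 tested DNAJA genes had no call and 0 at an unadjusted p under 0.05 in edgeR, and DESeq2 and limma-voom called 0. DNAJB6, an anti-aggregation J protein, showed the largest change of the DNAJB genes without a call, with an FPKM of 28.1, 30.7 and 28.8 in CELF6-OE and 28.3, 24.3 and 22.5 in Control and a log2 ratio of 0.20 (standard error 0.074, adjusted p = 0.0889). Control replicate 1 lay within the CELF6-OE range of FPKM.

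The 3-unit elements were found both in members that rose and in members without a call. HSP90AA1 and HSP90AB1 rose, while HSPD1, DNAJA1 and DNAJB6 had no call. Of the 14 called members 12 had a promoter window, and DNAJB1, DNAJC15, HSP90AA1, HSP90AB1 and TCP1 held a 2-unit match. By window these were 6 of 17 (35.3%), against 24.1% of member windows and 13.5% of all windows. The stretches around the matches of DNAJC15 and TCP1 overlap annotated exons, of DNAJC15 and MRPL18. The fallen gene DNAJC15 was among those with a match, and the risen genes BAG3, HSPH1, CCT5, DNAJC5 and DNAJC9 among those without.

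Partners of these chaperones that are not members were read from lists, given here with counts. Of 12 HSP90 co-chaperones CHORDC1 and FKBP4 rose and 10 had no call, 16.7% called against 18.0% of all genes. CHORDC1, a zinc-binding partner of HSP90, had a log2 ratio of 0.65 (standard error 0.165, adjusted p = 0.0209), and FKBP4, the immunophilin of steroid receptor complexes, had 0.29 (standard error 0.065, adjusted p = 0.0119). STIP1, which hands clients from HSP70 to HSP90, had 0.19 (standard error 0.061, adjusted p = 0.0545). Of 6 prefoldin subunits, which deliver actin and tubulin to TRiC, VBP1 rose, at 0.24 (standard error 0.075, adjusted p = 0.0444), and 5 had no call, also 16.7%. Among 9 HSP70 genes and partners HSPA6, HSPA1A, HSPA1B and HSPA8 rose, at log2 ratios of 4.87, 0.66, 0.60 and 0.25 (standard errors 0.16, 0.063, 0.058 and 0.062), which is 44.4% called. HSPA1A and HSPA1B are near-identical copies, and since only uniquely located reads were counted, reads that fit both would be left out. Of the other 6 heat shock genes listed, CRYAB, HSBP1, HSF4, HSP90B1, TRAP1 and SEC63, 0 were called in edgeR, and 1 had an unadjusted p under 0.05, HSP90B1, the HSP90 of the ER, at a log2 ratio of -0.26 (standard error 0.093, adjusted p = 0.0770).

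The order of the libraries within each group was tallied for the members. Among the 10 risen members the Control library with the lowest FPKM was replicate 3 for 7, and the one with the highest was replicate 1 for 7. Over all 64 tested members the counts were 43 and 39, and the SD was larger in Control than in CELF6-OE for 47. CELF6-OE replicate 2 was the highest library of its group for 9 of the 10 risen members, and for 31 of all 64 tested members. These orders were not tallied over all genes, so whether they are particular to the members was not tested. The risen members were also selected on these same libraries. Without Control replicate 1, 17 members were called higher and 7 lower, where 1911 and 2371 of all 15847 genes were. Without CELF6-OE replicate 2, 2 members were called higher, DNAJB1 and TCP1, and 4 lower, where 274 and 1062 of all 15847 genes were. The number of calls thus shifted with single libraries over all genes as well.

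**Figure D4:**
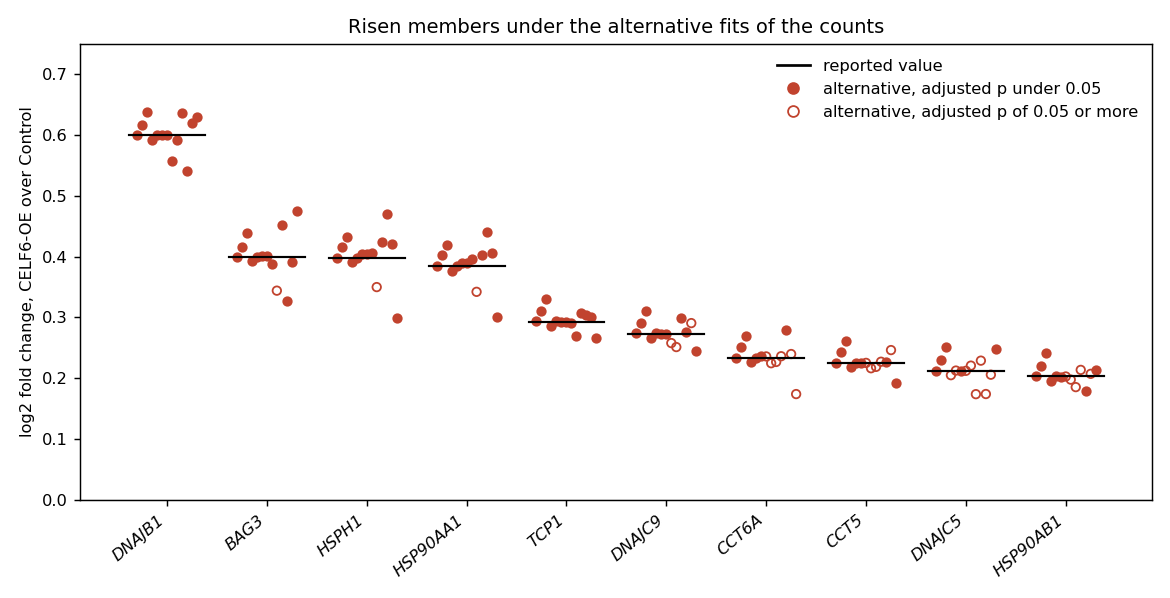
Log2 ratio of CELF6-OE over Control for the 10 risen members in the 13 alternative fits of the counts (points; filled where the adjusted p was under 0.05, open otherwise) and in the reported fit (lines). DNAJB1 and TCP1 are filled in every fit, while DNAJC5 and CCT6A are open in 8 and 6 of them.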

How the data were processed

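Read counts per gene and FPKM were read for 6 libraries, 3 per group. By their methods, the authors used the FASTX-Toolkit to trim reads and TopHat2 to align them to GRCh38 with up to 4 mismatches, and deposited counts of uniquely located reads without normalization. The deposited FPKM values were computed by the authors from the same reads and rounded. Which program counted the reads, whether it used strand, and on which gene annotation, is not given in the sources used here. Groups and replicate numbers came from the sample titles, and 0 columns were left out.

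Counts of the 15847 genes kept by filterByExpr (minimum count 10) of 29889 were scaled with TMM and tested with edgeR 4.0.16 in R 4.3.3 (quasi-likelihood test, Benjamini-Hochberg adjustment over all genes tested, prior count 0.125). The filter was used because a fit of all genes gave infinite prior degrees of freedom, against 7.15 after it. The standard error is the size of the coefficient divided by the square root of its F statistic. Log2 fold changes are CELF6-OE over Control. The biological coefficient of variation was 8.62%. Libraries held 33748328 to 37920700 counts, so for most members the spread between 3 biological replicates limits precision more than counting does. The p-values test the group difference against that spread, estimated with information shared over genes. The limit of 3 counts for a gene at 0 covers counting error only. The alternatives were other scalings, no filter, DESeq2 1.42.0, limma 3.58.1 (voom, or trend on log2(FPKM + 1) or log2(FPKM + 0.1)), the replicate number as a block, and leaving out each library. The scripts were tested on simulated counts with known changes. Members and lists were chosen with earlier results of these data known. Full values are given for members called at an adjusted p under 0.05, DEGs, HSF1 and HSF2. Of the other members of a role, up to 4 are examples, those with the highest FPKM and the largest changes, and of other genes those called. DNAJB4, DNAJB9, DNAJC3, DNAJC10, DNAJC28, CCT6B, CCT8, STIP1 and HSP90B1 were named outside this rule, after their values were seen. Gene positions are from GENCODE v44 and promoter sequences from RefSeq (GRCh38.p14). Splicing was not analysed here.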

Additional observations from a re-analysis of the deposited data

How the results depend on the processing

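The count of 10 risen members was 9 to 11 under other scalings, no filter and other tests, and 6 with the replicate number as a block. Leaving out 1 library gave 2 to 17 risen and 2 to 7 fallen members. The number of risen DEGs was 0 to 1 and that of fallen DEGs 2 to 3 in those fits. DNAJB1 was no DEG without CELF6-OE replicate 1, at a log2 ratio of 0.56. At a fold change of at least 2 the risen DEGs were 0, and the fallen DEGs were 0 with limma on log2(FPKM + 1), whose pseudocount exceeds the FPKM of DNAJB13 and DNAJC15. The log2 ratio of HSPH1 was 0.30 to 0.47 and that of HSP90AA1 0.30 to 0.44 with 1 library left out, and neither was called without CELF6-OE replicate 2. The cause of these losses was not tested, although fewer libraries were fitted. Same-numbered libraries had correlations of their deviations from the group means of -0.011, -0.021 and -0.072, and libraries of unlike number -0.042 to 0.058. With 3 libraries per group, whether equal numbers share a culture or batch cannot be told from these values. With the block, HSP90AB1, CCT5, CCT6A and DNAJC5 were not called. Over all genes, 1025 were called higher and 1820 lower, against 720 and 1570 with the block, 274 and 1062 without CELF6-OE replicate 2 and 1911 and 2371 without Control replicate 1. The 14 called members kept their direction in every alternative. Members of few counts, such as DNAJC15, are limited by depth.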

Other observations

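Only uniquely located reads were counted, so reads that fit a member and a copy alike would be left out. Overlapping neighbours could also take reads of some members. For 10 members, 18 processed or other pseudogenes named after them were in the table. Those of a member together held at most 0.941% of its counts in a library, a value reached in DNAJC19. Only symbols of a member followed by P and digits were searched, so pseudogenes named otherwise, of HSP90AA1 or other members, were not covered. Low counts on pseudogenes do not show how many shared reads were left out. By annotated span 42 members overlapped another gene, and for 21 an opposite-strand gene held over 10% as many counts. The gene TECR overlaps the annotated span of DNAJB1 on the opposite strand and held 25060 counts over the 6 libraries, against 44779 for DNAJB1. Its log2 ratio was -0.098 (standard error 0.075, adjusted p = 0.399 in edgeR's quasi-likelihood test), while that of DNAJB1 was 0.60. ACAT2 overlaps TCP1 on the opposite strand, with 8860 counts against 65546, and had a log2 ratio of -0.086 (standard error 0.068). WDR20, on the opposite strand at HSP90AA1, was called higher at 0.28 (standard error 0.086, adjusted p = 0.0476), with 0.93% as many counts. FAM149B1, on the opposite strand at DNAJC9, had 8.19% as many counts and a log2 ratio of -0.36 (standard error 0.12, adjusted p = 0.0518). The kit keeps strand, but the strand setting of the counting is not given in the sources used here.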
